A study of Mus musculus with 6 samples.

Results

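The Peg10-Sgce cluster is a group of neighbouring genes on the proximal part of mouse chromosome 6, several of which are imprinted, that is, expressed mainly from the copy inherited from one parent. It was described here by the 8 genes Peg10, Sgce, Casd1, Ppp1r9a, Pon2, Pon3, Asb4 and Calcr, taken by name from a table of 54352 genes. All 8 were among the 26571 genes tested. The members were chosen by name with their difference between SIRT1 KO and WT mESCs in these libraries already known, so those differences are given as a description, without a test.

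RNA was sequenced from mouse embryonic stem cells (mESCs) in 6 libraries, 3 from WT cells and 3 from SIRT1 KO cells, which lack a working copy of the deacetylase gene Sirt1. Cells of both genotypes were grown in the serum-free ESGRO medium, and the labels give the 129Sv/J background and a male origin for every library. The study describes its SIRT1 KO mESCs as a gene-targeted derivative of the R1 line, so each genotype is read here as 1 line, and what Sirt1 does cannot be told apart from other differences between the 2 lines. The values are levels per gene, summed over both parental copies, so which copy was expressed was not measured.

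At this locus Peg10 and Sgce are copied from the paternal chromosome, starting head to head beside a control region that carries DNA methylation on the maternal copy from the egg onwards. Genes farther out, such as Asb4, Ppp1r9a, Pon2 and Pon3, are known for a bias towards the maternal copy that is seen in some tissues, mainly placenta, and Calcr for such a bias in brain. PEG10 is a protein that arose from a retrotransposon, and mice without it die early with a failed placenta.

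The genes span 1.75 Mb on GRCm38, from chr6:3685680 at the Calcr end to chr6:5433022 at the Asb4 end. Peg10 (ENSMUSG00000092035.8) lies on the plus strand at chr6:4747306-4760517, and Sgce (ENSMUSG00000004631.15) on the minus strand at chr6:4674350-4747207, with 99 bases between their start sites. Casd1 (ENSMUSG00000015189.12, plus strand, chr6:4600839-4643355) is the next member on the side of Sgce. Ppp1r9a (ENSMUSG00000032827.15, plus strand, chr6:4902917-5165661) is the next on the side of Peg10. Beyond it follow Pon3 (ENSMUSG00000029759.9, minus strand, chr6:5220852-5256286), Pon2 (ENSMUSG00000032667.17, minus strand, chr6:5264147-5298455) and Asb4 (ENSMUSG00000042607.15, plus strand, chr6:5383386-5433022). Calcr (ENSMUSG00000023964.15, minus strand, chr6:3685680-3764714) lies on the far side of Casd1.

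The start regions of 4 members are shown with their content of CG, the pair of letters at which mammalian DNA is methylated. Each runs from 250 bases before to 50 bases after a RefSeq start on GRCm38.p6, reads 5′ to 3′ on the strand of the gene, and has every CG in capitals. Casd1 is its first start at chr6:4600661-4600960 (plus), Ppp1r9a is its second start at chr6:4903061-4903360 (plus), Pon2 is chr6:5298291-5298590 (minus) and Asb4 is its first start at chr6:5383136-5383435 (plus).
Casd1: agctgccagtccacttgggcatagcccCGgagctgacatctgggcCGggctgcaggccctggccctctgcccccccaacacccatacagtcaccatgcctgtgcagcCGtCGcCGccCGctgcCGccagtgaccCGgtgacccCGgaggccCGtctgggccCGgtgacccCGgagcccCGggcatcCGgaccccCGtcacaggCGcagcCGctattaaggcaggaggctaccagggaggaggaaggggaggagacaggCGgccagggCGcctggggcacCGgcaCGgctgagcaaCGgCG
Ppp1r9a: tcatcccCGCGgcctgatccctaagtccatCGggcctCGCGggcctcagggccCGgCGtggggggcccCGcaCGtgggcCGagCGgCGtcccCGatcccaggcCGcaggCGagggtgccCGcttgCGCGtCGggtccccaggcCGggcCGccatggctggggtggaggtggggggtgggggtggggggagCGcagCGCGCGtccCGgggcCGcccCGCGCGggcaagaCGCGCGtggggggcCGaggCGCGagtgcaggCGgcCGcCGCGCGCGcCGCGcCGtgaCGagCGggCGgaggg
Pon2: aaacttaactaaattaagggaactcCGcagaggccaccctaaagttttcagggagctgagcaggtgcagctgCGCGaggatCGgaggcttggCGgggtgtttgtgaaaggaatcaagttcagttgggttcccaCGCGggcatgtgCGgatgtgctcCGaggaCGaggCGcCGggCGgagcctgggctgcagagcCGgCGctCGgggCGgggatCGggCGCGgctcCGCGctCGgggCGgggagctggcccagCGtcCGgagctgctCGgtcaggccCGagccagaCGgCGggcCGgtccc
Asb4: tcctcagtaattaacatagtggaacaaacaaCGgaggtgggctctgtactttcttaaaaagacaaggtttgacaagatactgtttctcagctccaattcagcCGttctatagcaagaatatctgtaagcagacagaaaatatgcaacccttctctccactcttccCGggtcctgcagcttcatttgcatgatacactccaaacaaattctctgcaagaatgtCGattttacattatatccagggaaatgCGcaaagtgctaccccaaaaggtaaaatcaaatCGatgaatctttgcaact

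Of the 8 genes, 6 had an entry among the RefSeq start regions, with 10 windows between them, and Peg10 and Sgce had none. The first Casd1 window holds 23 CG, the second Ppp1r9a window 48 and the Pon2 window 31, while the first Asb4 window holds 6. The median over 32851 windows of the same length was 7. At least as many CG as in the second Ppp1r9a window were found in 1.2% of all windows, against 10.6% for Pon2, 21.5% for the first of Casd1 and 56.4% for the first of Asb4. The second Casd1 window holds 5 CG, the second Asb4 window 8, the other Ppp1r9a window 10 and the Pon3 window 7. Of the 2 Calcr windows, the one at the annotated gene start holds 4 CG and the other 29. At the window nearest to the annotated start, Casd1, Ppp1r9a and Pon2 held 23, 10 and 31 CG. Pon3, Asb4 and Calcr held 7, 6 and 4 there, below each of these. Windows at the other starts did not keep this order, with 5 CG in the second of Casd1 and 29 in the second of Calcr. Peg10 and Sgce had no window, and a link between CG content and the differences was not tested. The letters TGCCGC, known as the core bound by the imprint-keeping factor ZFP57, were searched on both strands and stand in 3 of the 10 windows (the first of Casd1, that of Pon3 and the second of Calcr) and in 11.6% of all windows. CACGTG, the E-box letters, stand in 1 of the 10 windows, the second of Ppp1r9a, and in 7.2% of all windows. These are matches of letters only.

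Before the values of the cluster, the targeted gene was examined. Sirt1 stood at 15.52, 15.54 and 15.49 on the log2 scale in WT replicates 1, 2 and 3, and at 13.71, 13.72 and 13.79 in SIRT1 KO replicates 1, 2 and 3. The difference was -1.78 (SE 0.0487, adjusted p = 1.16e-07 from limma), and an exact two-sided permutation test gave p = 0.10, the smallest that 3 against 3 libraries allow. The labelled cell type was checked by 13 pluripotency markers, which were all tested. Pou5f1, the core factor among them, stood at 18.40 ± 0.0898 for WT and 18.47 ± 0.0318 for SIRT1 KO (SD, n = 3 each). Of the 13, 0 rose and 1, Klf4, fell in limma (log2 difference -0.34, SE 0.0644, adjusted p = 0.00441), with 1 above and 4 below at an unadjusted p under 0.05. Of all tested genes, 8.47% rose and 8.12% fell at an adjusted p under 0.01. The call of Klf4 was lost with median centring (adjusted p = 0.0104) and without WT replicate 3 or SIRT1 KO replicate 2 or 3 (adjusted p up to 0.0313). Without WT replicate 2, Sox2 (adjusted p = 0.000605) and Klf2 (0.00127) also passed as lower, as they did with quantile normalization (0.00141 and 0.00241), which made 3 lower of the 13 under each. WT replicate 2 deviated most from the other libraries of its genotype (root mean square over tested genes 0.141, against 0.066 to 0.123 for the other libraries), so values that rest on it are also given without it. The table holds normalized values, and the number of reads behind a value is unknown. Replicates are samples that the labels number 1 to 3, and the errors measure only the spread between them. In bulk RNA, more cells expressing a gene and more RNA per cell cannot be told apart.

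Peg10, Sgce, Pon2, Ppp1r9a and Casd1 lay higher in SIRT1 KO than in WT mESCs, by between 1.79-fold and 4.72-fold, Pon3 lay slightly higher, and Asb4 and Calcr overlapped between genotypes. By an adjusted p under 0.01 in the fit of all genes, 5 of the 8 members fell among the higher genes and 0 among the lower ones, where 8.47% of tested genes were higher and 8.12% lower (2251 and 2157 of 26571, or 3099 and 1718 with each library centred on its median). Since the list was made with this contrast known, nothing is read from that share. All SIRT1 KO values lay above all WT values for 6 of the 8 members, as they did for 21.8% of tested genes. The median difference over the 8 members was 0.85 on the log2 scale and that over all tested genes was -0.01.

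**Figure D1:**
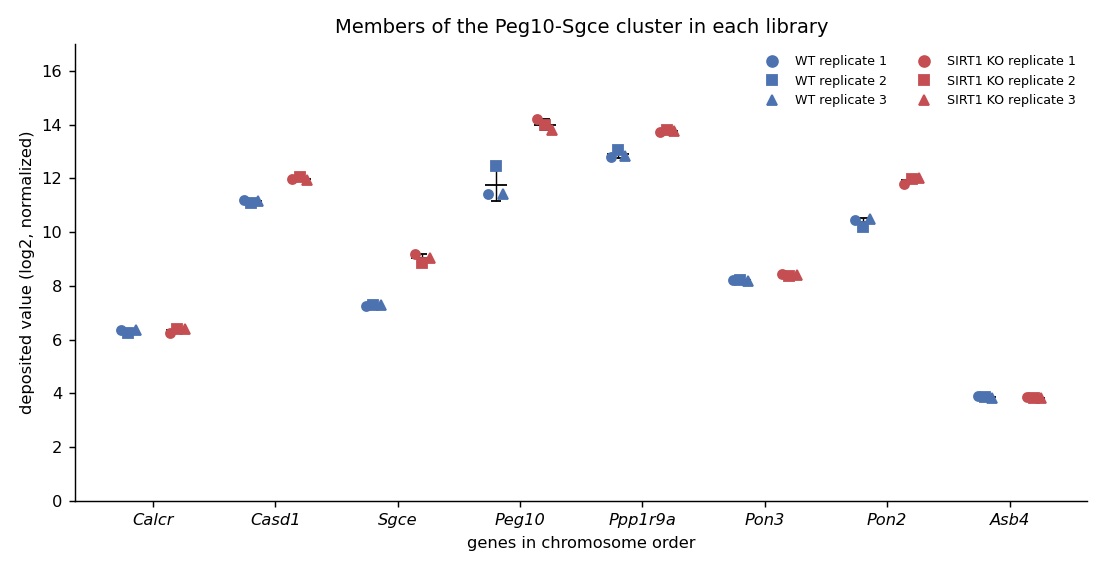
Deposited log2 value (y axis) of each member in each of the 6 libraries, with genes in chromosome order (x axis); blue symbols are WT, red symbols SIRT1 KO, and horizontal lines with bars are the mean ± SD of 3 libraries. Red lies clear of blue for Casd1, Sgce, Peg10, Ppp1r9a and Pon2, and Peg10 in WT replicate 2 (12.45) stands apart from the other WT libraries (11.43 and 11.41).

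Peg10 had the largest difference of the cluster. Its log2 value was 11.43, 12.45 and 11.41 in WT replicates 1 to 3 and 14.22, 13.98 and 13.80 in SIRT1 KO replicates 1 to 3, or 2751, 5578 and 2730 against 19020, 16192 and 14291 normalized units. WT replicate 2 was high within its group, and the lowest SIRT1 KO value still lay 1.36 above it. The mean was 11.76 ± 0.592 (SD, n = 3) in WT and 14.00 ± 0.207 (SD, n = 3) in SIRT1 KO mESCs, a difference of 2.24 (SE 0.25) or 4.72-fold. It ranked 15 of 26571 tested genes by the size of its difference upwards. Without WT replicate 2 the difference was 2.58.

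Sgce encodes epsilon-sarcoglycan, a membrane protein whose loss on the paternal copy causes myoclonus-dystonia in humans. Its log2 value was 7.25, 7.28 and 7.27 in WT and 9.17, 8.87 and 9.04 in SIRT1 KO replicates 1 to 3. The WT libraries were nearly equal, and the SIRT1 KO libraries all lay at least 1.58 above them. The means were 7.27 ± 0.0196 and 9.03 ± 0.153 (SD, n = 3 each), a difference of 1.76 (SE 0.0928) or 3.38-fold, at rank 28. In normalized units Sgce lay between 152 and 156 in WT and between 466 and 576 in SIRT1 KO libraries.

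The 2 genes that share this start region were compared within each library, so that scaling between libraries plays no part. The log2 difference Peg10 minus Sgce, not divided by length, was 4.18, 5.16 and 4.14 in WT libraries, against 5.05, 5.12 and 4.76 in SIRT1 KO replicates 1 to 3. The ranges overlapped through WT replicate 2, in which Peg10 was 1.03 above the mean of the other WT libraries while Sgce was 0.03 above.

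Casd1, on the other side of Sgce, encodes the enzyme that adds acetyl groups to sialic acids. Its log2 value was 11.19, 11.07 and 11.17 in WT and 11.96, 12.04 and 11.96 in SIRT1 KO replicates 1 to 3, with no overlap and a gap of 0.764. The means were 11.14 ± 0.064 and 11.98 ± 0.0456 (SD, n = 3 each), and the difference was 0.84 (SE 0.0642) or 1.79-fold. The log2 difference Casd1 minus Sgce within a library was 3.88 ± 0.081 for WT and 2.96 ± 0.194 for SIRT1 KO mESCs (mean ± SD, n = 3 libraries per genotype), without overlap, so the neighbouring genes did not move by the same amount on this scale.

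Ppp1r9a encodes neurabin, a scaffold that binds actin and protein phosphatase 1 in neurons. Its log2 value was 12.80, 13.04 and 12.83 in WT and 13.71, 13.81 and 13.75 in SIRT1 KO replicates 1 to 3, again without overlap. The difference was 0.86 (SE 0.0728) or 1.82-fold, between means of 12.89 ± 0.132 and 13.76 ± 0.0487 (SD, n = 3 each). The log2 difference Ppp1r9a minus Peg10 within a library was 1.13 ± 0.461 for WT and -0.24 ± 0.233 for SIRT1 KO mESCs (mean ± SD, n = 3 libraries per genotype), again with no overlap.

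The paraoxonases are lactonases, of which PON2 sits in membranes inside the cell and PON3 is found in cells and in blood lipoproteins. Pon2 stood at 10.44, 10.20 and 10.49 on the log2 scale in WT libraries, against 11.79, 11.99 and 12.02 in SIRT1 KO replicates 1 to 3. The groups were far apart, with means of 10.38 ± 0.153 and 11.93 ± 0.123 (SD, n = 3 each), a difference of 1.56 (SE 0.0968) or 2.94-fold and rank 42. Pon3, the gene next to it, stood at 8.22, 8.23 and 8.17 in WT libraries, against 8.43, 8.35 and 8.40 in SIRT1 KO replicates 1 to 3. Its groups did not overlap either, but the gap was 0.125 and the difference 0.19 (SE 0.0735) or 1.14-fold, and 17.51% of tested genes had a larger one. The difference of Pon2 over Pon3 within libraries went from 2.17 ± 0.174 in WT to 3.54 ± 0.155 in SIRT1 KO mESCs (± SD, n = 3 libraries per genotype). Pon1, the paraoxonase of blood, is the remaining gene of the family and lies beside Pon3. It was too low to be tested, at -1.04 to -1.03 on the log2 scale in all libraries. Pon2 was also the sole member whose exons share bases with another gene, 680 of them with the plus-strand model Gm44424, which stood at a mean of 3.99 and differed by 0.01 between genotypes (adjusted p = 0.794 from limma).

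The members at both ends of the cluster did not separate the genotypes. Asb4, which encodes a subunit that brings targets to a ubiquitin ligase, stood at 3.90, 3.86 and 3.84 in WT libraries, against 3.84, 3.81 and 3.84 in SIRT1 KO replicates 1 to 3. Its difference was -0.03 (SE 0.0263), or 0.02 with each library centred on its median. Calcr, the receptor for calcitonin, stood at 6.37, 6.25 and 6.36 in WT libraries, against 6.24, 6.39 and 6.39 in SIRT1 KO replicates 1 to 3. Its difference was 0.01 (SE 0.0686), it ran from -0.03 without WT replicate 2 to 0.06 without SIRT1 KO replicate 1, and it was 0.07 with median centring. In normalized units Asb4 lay between 14.0 and 14.9 and Calcr between 75.8 and 84.1. The deposited values draw low genes together between libraries: the median SD within a genotype was 0.041 for genes with a mean from 10 to 30 units and 0.116 for those from 300 to 1000. A change at the level of Asb4 may be understated.

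Levels were compared between members after division by the summed exon length. In WT mESCs Casd1 (9.13 ± 0.064), Ppp1r9a (9.03 ± 0.132) and Peg10 (9.03 ± 0.592) led on the log2 scale per kb of exons, and each overlapped the next. These overlaps rested on WT replicate 2, where Peg10 stood at 9.71, above Casd1 (9.06) and Ppp1r9a (9.18). In WT replicates 1 and 3 Peg10 stood at 8.69 and 8.68, below Casd1 (9.18 and 9.16) and Ppp1r9a (8.94 and 8.97). Pon2 (7.50), Pon3 (6.45), Calcr (4.36), Sgce (3.86) and Asb4 (1.89) followed, each apart from the next. Peg10 and Sgce start beside each other. By their WT means, Peg10 was at percentile 41.2 and Sgce at percentile 9.9 of 16156 tested protein-coding genes. The mean of Peg10 was raised by WT replicate 2. In SIRT1 KO mESCs Peg10 (11.26 ± 0.207, SD, n = 3) stood alone at the head and reached percentile 64.2, Sgce (5.62 ± 0.153, SD, n = 3) passed Calcr and reached percentile 20.1, and Pon2 moved from percentile 30.6 to 41.5. Asb4 stayed at percentile 2.1.

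**Figure D2:**
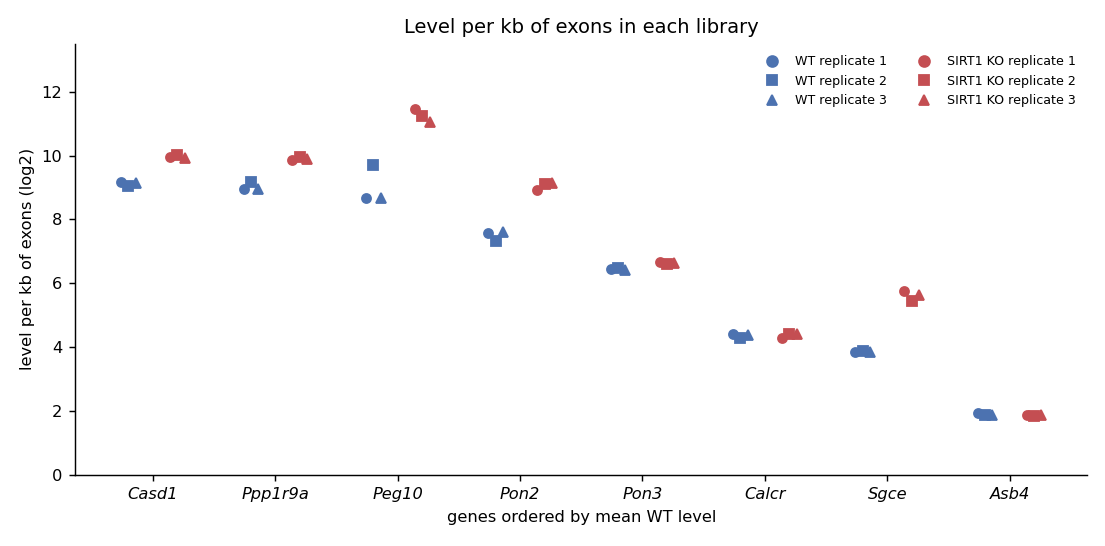
Log2 level per kb of summed exons (y axis) of each member in each library, with genes ordered by mean WT level (x axis); blue symbols are WT and red symbols SIRT1 KO replicates. Peg10 lies below Casd1 and Ppp1r9a in WT replicates 1 and 3 and above them in WT replicate 2. In SIRT1 KO libraries it lies above all members (11.26 on average), and Sgce crosses Calcr.

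The genes around the cluster, taken by position and not by their values, were examined to see where along the chromosome differences were found. Of 64 other genes that start within 2 Mb of the start of Peg10, 19 were listed at 0 in all libraries and 25 could be tested. By limma 2 of the 25 rose and 0 fell, beside 8.47% and 8.12% of all tested genes, with 3 above and 2 below at an unadjusted p under 0.05. Their median difference was -0.01, equal to that over all tested genes. Among the 10 protein-coding neighbours tested, 2 rose and 0 fell, with a median difference of 0.065. Of the 16156 protein-coding genes tested, 2003 rose and 1826 fell, with a median of -0.003. Along the 1319 tested genes of chromosome 6, 82 rose and 141 fell, with a median of -0.031.

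Both neighbours that rose lie on the side of Casd1, Samd9l beyond Calcr and Bet1 between Calcr and Casd1. Samd9l, a gene of the interferon response that restrains cell growth and viruses, starts at -1347.7 kb from Peg10, where a minus sign marks the side of Casd1. It stood at 11.29, 11.33 and 11.43 in WT libraries, against 12.16, 12.27 and 12.33 in SIRT1 KO replicates 1 to 3, a difference of 0.91 (SE 0.0704, adjusted p = 3.14e-05 from limma). Bet1, which encodes a SNARE of transport between endoplasmic reticulum and Golgi, starts at -660.3 kb. It stood at 12.03, 12.09 and 12.18 in WT libraries, against 12.51, 12.49 and 12.53 in SIRT1 KO replicates 1 to 3, a difference of 0.41 (SE 0.0605, adjusted p = 0.00115 from limma). Neither pair of groups overlapped. Over the alternatives the adjusted p ran up to 0.000535 for Samd9l and 0.00932 for Bet1.

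No other neighbour passed. The other 8 tested protein-coding neighbours differed by -0.101 to 0.123 in SIRT1 KO against WT mESCs. Those nearest to Peg10 on each side, picked after their values were seen, were Col1a2, a collagen chain (-0.10, SE 0.0326, adjusted p = 0.0473), and Pdk4, a kinase of the pyruvate dehydrogenase complex (-0.03, SE 0.0864, adjusted p = 0.848). Of the 8, Col1a2, Hepacam2 and Gng11 were low, at log2 means of 4.19, 4.36 and 4.66 in WT, where values are drawn together. A change in them may be understated. The tested neighbour nearest to Peg10 was the processed pseudogene Gmfg-ps, 146.5 kb away and inside the stretch from Casd1 to Pon2, whose reads may be shared with its parent gene Gmfg. It stood at 7.82, 7.67 and 7.90 in WT libraries, against 8.06, 8.30 and 8.43 in SIRT1 KO replicates 1 to 3, a difference of 0.47 (SE 0.111) that did not pass in limma (adjusted p = 0.0134) but did with the replicate number as a block (0.0089), with median centring (0.00705), with quantile normalization (0.0079) and without SIRT1 KO replicate 1 (0.00774). The next 3 tested neighbours by distance, Gm26814, Gm26736 and Gm26556, differed by 0.01, -0.04 and -0.04 (adjusted p from limma of 0.946, 0.307 and 0.426). These 3 models lie within the member Ppp1r9a and on its strand. From the start of Casd1 to that of Pon2, 697.6 kb apart, the starts of members of larger difference were interleaved with starts of genes nearer to 0. The genes nearer to 0 were Pon3 and 5 models not annotated as protein-coding. Of these models, the 3 just named lie within Ppp1r9a and Gm44424 within Pon2, not between members. The 5 models were low, at means of 13.1 to 81.2 units, where values are drawn together, so a change in them may be understated.

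**Figure D3:**
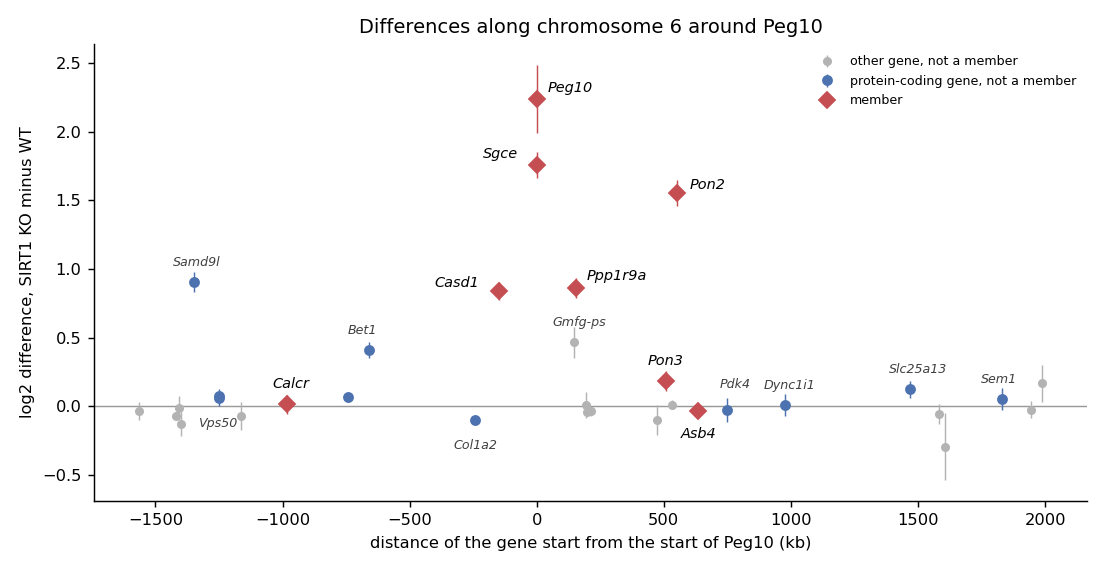
Log2 difference between SIRT1 KO and WT mESCs (y axis, bars are the SE) against the distance of each gene start from that of Peg10 in kb (x axis), for members (red), other protein-coding genes (blue) and other genes (grey). Peg10 (2.24), Sgce (1.76) and Pon2 (1.56) stand highest, Samd9l (0.91), Ppp1r9a (0.86), Casd1 (0.84), Gmfg-ps (0.47) and Bet1 (0.41) follow, and the other genes lie nearer to 0.

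Peg10 and Sgce belong to a class of paternally expressed genes that lie under maternally methylated control regions, and 20 genes of other imprinted loci were listed beside them. By limma 1 of the 20 rose, 9 fell and 10 did not pass, beside 8.47% higher and 8.12% lower of all tested genes. The median difference was -0.226, against -0.01 over all tested genes. Genes of the list that share a locus were counted singly, so the 20 are not 20 separate loci. The list holds Zim1, which is expressed from the maternal copy, and Zfp787, which is not established as a member of the class. Neither passed (adjusted p = 0.247 and 0.317), and of the other 18 genes 1 rose, 9 fell and 8 did not pass, with a median of -0.327. Snrpn, a splicing protein gene of the Prader-Willi region, fell by 5.68 log2 units (SE 0.0996, adjusted p = 6.99e-09 from limma). Kcnq1ot1, a noncoding RNA that silences its neighbours on the paternal chromosome, fell by 5.48 (SE 0.198, adjusted p = 6.92e-07 from limma). Nespas, an antisense RNA of the Gnas locus, fell by 0.99 (SE 0.0924, adjusted p = 8.37e-05 from limma), and the noncoding RNA Peg13 by 0.96 (SE 0.0824, adjusted p = 5.28e-05 from limma). Peg3 (-0.54), Mest (-0.40), Usp29 (-0.67), Nnat (-0.52) and Ndn (-0.48) were the other lower genes. Mest also lies on chromosome 6. The 1 higher gene was Zrsr1 (0.37, SE 0.067, adjusted p = 0.00358 from limma), whose call was lost without any 1 of the SIRT1 KO replicates (adjusted p up to 0.0225). Without any 1 of the SIRT1 KO replicates, 7 of the 20 were lower, Ndn and Nnat having lost their calls (adjusted p up to 0.0144 and 0.0229), and Nnat was also lost without WT replicate 3 (0.026) and with quantile normalization (0.0119). Kcnq1ot1 and Nespas overlap genes of the opposite strand, so their values are uncertain where reads were not counted by strand. The differences of Peg10 and Sgce lay above those of all 20 genes.

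**Figure D4:**
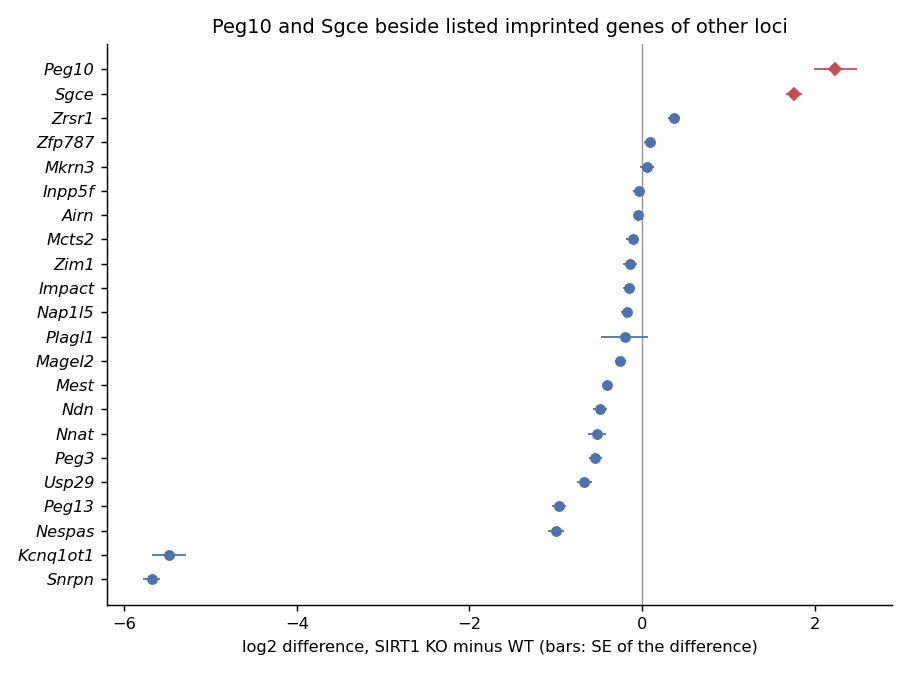
Log2 difference between SIRT1 KO and WT mESCs (x axis, bars are the SE of the difference) for Peg10 and Sgce (red) and for the 20 listed genes of other imprinted loci (blue), in order of the difference. Peg10 (2.24) and Sgce (1.76) stand at the top, Zrsr1 (0.37) is next, and Kcnq1ot1 (-5.48) and Snrpn (-5.68) stand at the bottom.

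Factors that set, keep or remove DNA methylation were measured in the same libraries, and the part of none of them in the values of the cluster was tested. Of 16 such genes, 3 rose and 2 fell by limma, beside 8.47% and 8.12% of all tested genes. Without WT replicate 2 the counts were 4 and 5, beside 2794 and 2669 of all 26571 tested genes. The enzymes of new methylation went in different directions, with Dnmt3a lower (-1.20, SE 0.0645, adjusted p = 4.53e-06) and Dnmt3b (0.61, SE 0.0469, adjusted p = 2.97e-05) and their partner Dnmt3l (0.84, SE 0.0568, adjusted p = 1.5e-05) higher. Dppa3, which protects maternal methylation in the early embryo, fell by 0.62 (SE 0.0754, adjusted p = 0.000386). Dnmt1, the enzyme that copies methylation at replication, was the third higher gene (0.24, SE 0.0488, adjusted p = 0.00674), and this call did not hold with replicate numbers as a block (0.0185), with quantile normalization (0.0159) and without WT replicate 1 or any 1 SIRT1 KO replicate (up to 0.0449). The imprint-keeping factors Zfp57 (-0.19, adjusted p = 0.0199), Zfp445 (0.23, adjusted p = 0.0128) and Trim28 (0.04, adjusted p = 0.643) did not pass. Zfp57 passed without WT replicate 2 (0.00658) and with quantile normalization (0.00329), and Zfp445 without WT replicate 2 (0.000459), with median centring (0.00547) and with the filter at a mean of 100 (0.00949). Tet1, an enzyme that oxidises methyl groups, did not pass (-0.67, SE 0.229, adjusted p = 0.0593), but without WT replicate 2 its difference was -0.34 and it did (adjusted p = 0.000389). The same held for Tet2, an enzyme of the same family (-0.31, adjusted p = 0.0628), which differed by -0.16 without that library (adjusted p = 0.00586).

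Relatives and partners of the members were examined by the lists named for each. Of 8 tested gag genes of retrotransposon origin other than Peg10, 2 rose and 1 fell by limma, beside 8.47% and 8.12% of all tested genes. Rtl1, also known as Peg11, a relative of Peg10 in an imprinted region of chromosome 12, fell by 7.90 log2 units (SE 0.115, adjusted p = 2.15e-09). Whether reads were counted by strand is not given, so RNA of the opposite strand could enter the value of Rtl1. Arc, which packs RNA into capsid-like shells in neurons, rose by 0.49 (SE 0.0499, adjusted p = 0.000137). Ldoc1 rose by 0.61 (SE 0.111, adjusted p = 0.00355), a call that was lost without SIRT1 KO replicate 1 or 3 (0.0198 and 0.0214).

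No partner of Sgce in the sarcoglycan and dystroglycan complex passed as higher. Of 10 tested, 0 rose and 2 fell by limma, beside 8.47% and 8.12% of all tested genes. At an unadjusted p under 0.05, 1 of the 10 lay above and 4 below. Dtna, the linker protein dystrobrevin alpha, fell by 0.64 (SE 0.0826, adjusted p = 0.000522). Sgcd, the delta subunit, fell by 0.24 (SE 0.0401, adjusted p = 0.00235), and lost the call with median centring (0.0117) and without WT replicate 3 or SIRT1 KO replicate 1 or 2 (up to 0.0135). Sgcb, the beta subunit, differed by 0.31 (SE 0.0707, adjusted p = 0.0107) and passed with median centring (0.00417), quantile normalization (0.00782), without the trend (0.00547) and without WT replicate 2 (0.00905). Dag1, dystroglycan itself, differed by -0.46 (SE 0.124, adjusted p = 0.0237) and passed without WT replicate 1 (0.0098) and, at -0.30, without WT replicate 2 (0.0035). Sgca, the alpha subunit that Sgce most resembles, differed by -0.0038 (adjusted p = 0.956). Ppp1r9b, the second neurabin gene, differed by -0.17 (SE 0.0678, adjusted p = 0.101) and by -0.23 without WT replicate 2 (adjusted p = 0.00342).

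Listed with Calcr were hormones of the calcitonin family, co-receptors and the related receptor Calcrl. Of the 6 tested, 2 rose and 0 fell by limma, beside 8.47% and 8.12% of all tested genes. At an unadjusted p under 0.05, 5 of the 6 lay above and 1 below. Calcrl and the hormone gene Adm were low, at means of 4.08 and 4.37 in WT, where values are drawn together. Adm2, a hormone of the calcitonin family, rose by 1.73 (SE 0.0917, adjusted p = 4.25e-06). Calca, the gene of calcitonin itself, rose by 0.42 (SE 0.0906, adjusted p = 0.00822), a call lost under 8 of the 14 alternatives, the replicate block among them (0.0128). The co-receptors Ramp3 (0.37, adjusted p = 0.0161) and Ramp2 (0.33, adjusted p = 0.0367) did not pass, nor did the receptor Calcrl (0.14, adjusted p = 0.027), while Ramp3 (0.00772) and Calcrl (0.00343) passed with median centring, which made 4 higher of the 6. With median centring 3099 of all 26571 tested genes were higher.

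Markers of other cell types were compared because members of the cluster are expressed in extraembryonic tissue. The counts of each list stand beside 8.47% higher and 8.12% lower of all tested genes. Of 13 trophoblast markers 10 could be tested, of which 3 rose and 2 fell by limma. The keratin genes Krt8 (2.36, SE 0.0658, adjusted p = 1.25e-07) and Krt18 (1.67, SE 0.08, adjusted p = 2.48e-06) and the transcription factor gene Eomes (0.48, SE 0.0602, adjusted p = 0.000465) rose. Tfap2c (-0.59, SE 0.0536, adjusted p = 7.33e-05) and Plet1 (-0.50, SE 0.0916, adjusted p = 0.00368) fell, the latter not under 5 of the 14 alternatives. With median centring, quantile normalization or no trend 5 were higher, Cdx2 (0.36, adjusted p = 0.0124, and 0.00471, 0.00413 and 0.00625 under these) and Ascl2 (0.28, adjusted p = 0.02, and 0.00971, 0.00793 and 0.00637) passing as well, and Cdx2 also passed with no filter (0.00953) and with the filter at a mean of 100 (0.00892). Tpbpa was listed at 0 in every library, and Gata3 and Plac1 were too low to be tested. The summed level of the list was 24036 to 25471 normalized units in WT and 42101 to 44830 in SIRT1 KO libraries. Krt8 alone made up 3891 to 4325 and 20171 to 22587 of these, and the sum without it was 19979 to 21145 against 21317 to 22739 units. Of the 11 primitive endoderm markers 1, Sox7 (0.96), rose and 5 fell, among them Col4a1 (-0.90), Gata6 (-0.66) and Dab2 (-0.67, not without SIRT1 KO replicate 1, adjusted p = 0.0101), with summed levels of 62182 to 67509 units in WT and 56355 to 58967 in SIRT1 KO libraries. The other lower ones, Pdgfra (-0.55) and Cubn (-0.45), lost their calls without any 1 of the SIRT1 KO replicates (adjusted p up to 0.0175 and 0.0211), which left 2 lower without replicate 1 and 3 without replicate 2 or 3. Of 11 fibroblast markers 6 could be tested, of which Pdgfrb (0.38, lost under 4 of the 14 alternatives) rose and Thy1 (-0.56) fell, with Dcn, Postn and Twist2 listed at 0 in all libraries and summed levels of 5446 to 6024 and 5925 to 6353 units. Of 8 tested neural markers, Nes (0.87) rose and Sox1 (-0.62) fell, with summed levels of 54529 to 64461 and 71865 to 72278 units. The part of other cell types in the values of the cluster was not tested.

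The genes whose 6 values followed Peg10 and Sgce most closely were sought among 13571 protein-coding genes with a mean of at least 100 units, by the Euclidean distance between log2 values centred on the mean of each gene. For Peg10 these were Vldlr, a lipoprotein receptor (distance 0.708), Abca1, a cholesterol exporter (0.838), Inhbe, an activin subunit (0.847), Slc22a18, a transporter gene of an imprinted domain on chromosome 7 (0.876), and Fam129a (0.908). Sgce was at place 17 (1.04) and Pon2 at place 49 (1.42). For Sgce the closest were 9930022D16Rik (0.109), Adm2 (0.152), Ddit4, an inhibitor of mTORC1 signalling (0.17), Krt18 (0.259) and Gng2, a G protein subunit (0.264). Pon2 was at place 24 (0.501) and Peg10 at place 167. All of these closest genes lie on other chromosomes. The measure spans 6 libraries of 2 genotypes, so genes with a like difference between genotypes come out close.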

How the data were processed

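RNA-seq values from 3 WT and 3 SIRT1 KO libraries of mESCs were used, grouped by the genotype in the labels. The deposited log2 values were made by the authors from featureCounts counts per gene, after STAR alignment to the mm10 (GRCm38) genome, and normalized between libraries with DESeq2. Which DESeq2 transformation was used, and whether reads were counted by strand, are not given in the sources used here. The study describes total RNA prepared with a stranded ribosomal depletion kit, whereas the labels describe poly(A) enrichment. Read counts were not used here, so depth per gene is unknown and no counting interval is given.

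Differences between genotypes were fitted with limma 3.58.1 (R 4.3.3), using moderated variances that follow the mean level, over the 26571 genes whose linear mean reached 10. Fold changes are on the deposited log2 scale, to which no pseudocount was added. The Benjamini-Hochberg adjustment covered all tested genes, and calls required an adjusted p under 0.01. SD is between libraries, and SE is that of the difference in limma. Of 54352 rows, 16649 were at 0 in all libraries and 53638 matched 1 gene of GENCODE vM21 on GRCm38, which gave positions and exon lengths. Sequences are those of RefSeq (GRCm38.p6). The steps were tested on simulated data.

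The members and the gene lists were chosen with earlier results of these data known. By the rule for named genes these are all members, Sirt1, neighbours within 2 Mb that passed or lie nearest to Peg10, up to 4 genes of each list with the largest difference, tested paralogs of members, and the 5 closest profiles of Peg10 and of Sgce. Other genes named were picked after their values were seen.

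Deviations from the genotype mean correlated at 0.242, 0.149 and 0.316 between WT and SIRT1 KO libraries of equal number, against -0.301 to 0.084 between unequal numbers. The numbers are therefore taken to pair the libraries, although no source says what a number stands for. The main fit did not use this pairing. It gave every SE and adjusted p in the Results for which no alternative is named. The alternatives were the replicate number as a block, other filters, a pseudocount of 10, median centring, quantile normalization, no trend, a threshold of 0.05, each library left out in turn, and windows of 1 and 5 Mb.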

Additional observations from a re-analysis of the deposited data

How the results depend on the processing

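The same 5 members (Peg10, Sgce, Casd1, Ppp1r9a and Pon2) were among the higher genes under all 14 alternatives that applied to them. The members were chosen with this contrast known, and the alternatives reuse the same 6 libraries. This therefore describes the processing and is no test of the members. With a library left out, the difference of Peg10 ran from 2.065 to 2.58 and that of Sgce from 1.687 to 1.839, while Casd1 ran from 0.803 to 0.863, Ppp1r9a from 0.819 to 0.94 and Pon2 from 1.468 to 1.626. The difference of Pon3 was 0.242 with median centring and 0.269 with quantile normalization. Median centring moved the median of all genes by 0.0562 and turned Asb4 from -0.035 to 0.021. At an adjusted p of 0.05, 3762 genes were lower and 3804 higher, and 1 neighbour, Col1a2, was lower. With a library left out, lower genes numbered from 1283 (without SIRT1 KO replicate 2) to 2669 (without WT replicate 2), with 1413 without WT replicate 3 and 1331 without SIRT1 KO replicate 3, and higher genes from 1202 (without SIRT1 KO replicate 3) to 2794 (without WT replicate 2), with 1206 without SIRT1 KO replicate 2. The cause was not tested. Of the neighbours, 1 was higher within 1 Mb, and 1, Ica1, was lower within 5 Mb. With the replicate number as a block, 2079 genes were lower and 2041 higher. Among the members, the listed genes and the neighbours within 2 Mb, the block changed only the calls of Gmfg-ps, Dnmt1 and Calca. Only 3 libraries stand behind each mean, the values carry no depth, and low genes such as Asb4 are drawn together.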

Other observations

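WT replicate 2 held high values of a set of protein-coding genes, Peg10 among them. Of 13577 protein-coding genes with a mean of at least 100 units, 77 lay at least 1 above both other WT libraries on the log2 scale in WT replicate 2, against 2 in WT replicate 1 and 0 in each of the other libraries. Polr2a, the large subunit of RNA polymerase II, stood at 14.17, 16.85 and 14.19 in WT replicates 1 to 3 and at 14.29, 14.32 and 14.30 in the SIRT1 KO libraries. Ireb2, a regulator of iron storage, and the chromatin genes Kdm6b and Setd1b were also among the 77, at 1.94, 1.73 and 1.41 above the higher of the other WT libraries. Peg10 was at place 73 of the 77. No other member was among them, the next being Ppp1r9a at 0.227 above the mean of the other WT libraries, while Pon2 lay on the other side of that mean (-0.261).

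Within the cluster the spread between WT libraries differed widely from member to member. An SD as large as that of Peg10 (0.592) was reached by 0.93% of tested genes, while 93.3% had an SD at least as large as that of Sgce (0.02), which starts 99 bases away. In SIRT1 KO mESCs the SDs of both were alike in size, at 0.207 and 0.153.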
